A study of Mus musculus with 2 samples.

Results

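The tropomyosins, tropomodulins and leiomodins of the newborn mouse heart are described here as 10 genes: Tpm1, Tpm2, Tpm3, Tpm4, Tmod1, Tmod2, Tmod3, Tmod4, Lmod2 and Lmod3. They were the rows of both gene tables whose identifier carries one of these symbols in GENCODE, and all 10 were found among 43346 genes. The tissue was whole heart of healthy B6NTac;B6NCrl/Lap mice, with no transgene or treatment given in the labels, taken on postnatal day 0 and pooled over males and females. Total RNA longer than 200 nucleotides was depleted of ribosomal RNA, given ERCC spike-in RNAs and read as stranded pairs. The study held 1 group with 2 biological replicates from independent isolates that carried the same donor label, so nothing could be tested between conditions. Hearts of 15 mice went into replicate 1, and the labels give no such number for replicate 2. Fewer cells of a type and less RNA per cell cannot be told apart in such whole-tissue samples.

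Tropomyosins are coiled-coil dimers that lie head to tail along both grooves of the actin filament. In striated muscle they carry the troponin complex and open or close the myosin-binding sites of actin as calcium changes. Most tropomyosin genes make several proteins by choosing between alternative exons: exon 1a gives a long protein and exon 1b a short one, exons 2a and 2b as well as 6a and 6b replace each other, and one of several last coding exons ends the chain. Exon 9a is the ending of striated muscle forms and exon 9d that of smooth muscle and many nonmuscle forms. Tropomodulins cap the pointed end of tropomyosin-coated filaments and stop their growth, and leiomodins, built like tropomodulins with an added actin-binding part, start and lengthen filaments.

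The exons between which Tpm1 chooses are shown because the results on its muscle and other forms turn on them. Sequences are coding bases from GENCODE M21 transcripts on GRCm38, written 5′ to 3′ on the transcribed strand without the stop codon. All lie on the minus strand of chromosome 9: exon 2a at chr9:67048124-67048249, 2b at chr9:67047786-67047911, 6a at chr9:67032466-67032541, 6b at chr9:67031951-67032026, 9a at chr9:67029664-67029742 and 9d at chr9:67023362-67023441. Exon 9a is printed with the 1 base of the next exon that completes its last codon. Capitals mark bases that differ from the other exon of the pair.
Tpm1 2a: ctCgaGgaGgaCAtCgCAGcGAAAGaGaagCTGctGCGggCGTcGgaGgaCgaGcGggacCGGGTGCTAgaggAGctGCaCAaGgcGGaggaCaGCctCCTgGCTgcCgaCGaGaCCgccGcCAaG
Tpm1 2b: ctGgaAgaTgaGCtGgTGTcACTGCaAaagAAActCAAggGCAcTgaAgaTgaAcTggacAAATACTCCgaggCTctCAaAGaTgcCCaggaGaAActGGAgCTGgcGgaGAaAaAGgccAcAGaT
Tpm1 6a: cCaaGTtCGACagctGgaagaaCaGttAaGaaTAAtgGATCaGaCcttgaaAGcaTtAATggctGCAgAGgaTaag
Tpm1 6b: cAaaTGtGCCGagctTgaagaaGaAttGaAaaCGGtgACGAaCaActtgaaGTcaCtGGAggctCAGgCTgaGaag
Tpm1 9a: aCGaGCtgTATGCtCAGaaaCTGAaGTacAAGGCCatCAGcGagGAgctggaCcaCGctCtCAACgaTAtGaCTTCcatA
Tpm1 9d: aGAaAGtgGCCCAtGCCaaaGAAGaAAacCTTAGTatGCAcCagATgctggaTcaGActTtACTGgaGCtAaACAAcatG
Exons 2a and 2b differed at 66 of 126 bases, exons 6a and 6b at 33 of 76 and exons 9a and 9d at 46 of 80. A read across such an exon can therefore tell the paired exons of Tpm1 apart.

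The same last exons in other genes show how far the ending was alike between members, with capitals now marking bases that differ from the exon of the same name in Tpm1. Exon 9a of Tpm2 lies at chr4:43515924-43516003 on the minus strand and exon 9a of Tpm3 at chr3:90091013-90091091 on the plus strand, again with 1 joined base. Exon 9d of Tpm2 lies at chr4:43514782-43514861, that of Tpm3 at chr3:90099528-90099607 and that of Tpm4 at chr8:72151742-72151821 on the plus strand.
Tpm2 9a: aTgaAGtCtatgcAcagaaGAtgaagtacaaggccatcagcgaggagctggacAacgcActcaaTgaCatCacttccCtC
Tpm3 9a: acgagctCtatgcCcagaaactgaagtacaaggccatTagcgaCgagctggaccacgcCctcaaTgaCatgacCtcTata
Tpm2 9d: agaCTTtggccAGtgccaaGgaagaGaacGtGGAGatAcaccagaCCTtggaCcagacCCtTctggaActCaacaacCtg
Tpm3 9d: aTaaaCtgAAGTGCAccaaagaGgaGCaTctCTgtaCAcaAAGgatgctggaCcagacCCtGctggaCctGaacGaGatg
Tpm4 9d: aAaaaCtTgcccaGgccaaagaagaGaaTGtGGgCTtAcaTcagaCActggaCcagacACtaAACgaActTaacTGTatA
Against exon 9a of Tpm1, the Tpm2 exon differed at 14 of 80 bases and the Tpm3 exon at 9, or 82.5% and 88.75% identity. Against exon 9d of Tpm1, the exons of Tpm2, Tpm3 and Tpm4 differed at 23, 28 and 27 of 80 bases. The striated muscle ending was thus closer between genes than the other ending. Between the leading coding sequences of members of one family, the longest identical run was 13 to 35 nucleotides, shorter than a read. The 35 was shared by Tpm1 and Tpm2. Other transcripts were not compared, and the leading one of Tpm3 ends in exon 9d, so longer runs between them are possible.

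The newborn heart expressed Tpm1 far above every other member, followed by Tpm4, Tmod1, Tpm3 and Lmod2. Levels are TPM, which is relative to all transcripts of a library after division by length, and a gene was called detected when each replicate gave it at least 1 TPM. Of the 10 members, 8 were detected, against 24.2% of all genes and 47.1% of protein-coding genes, and the exceptions were Tmod2 and Tmod4. Mean ± SD below is over the 2 replicates. A pair of genes that neighbour each other in a family was called unequal when its log2 ratio passed 2.15 in each replicate and in the same direction, where 2.15 is the 95th percentile of absolute log2 differences between the replicates over genes whose mean TPM was 1 or above. By this rule 2 of 7 neighbouring pairs were unequal, Tpm1 over Tpm4 and Lmod2 over Lmod3.

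**Figure D1:**
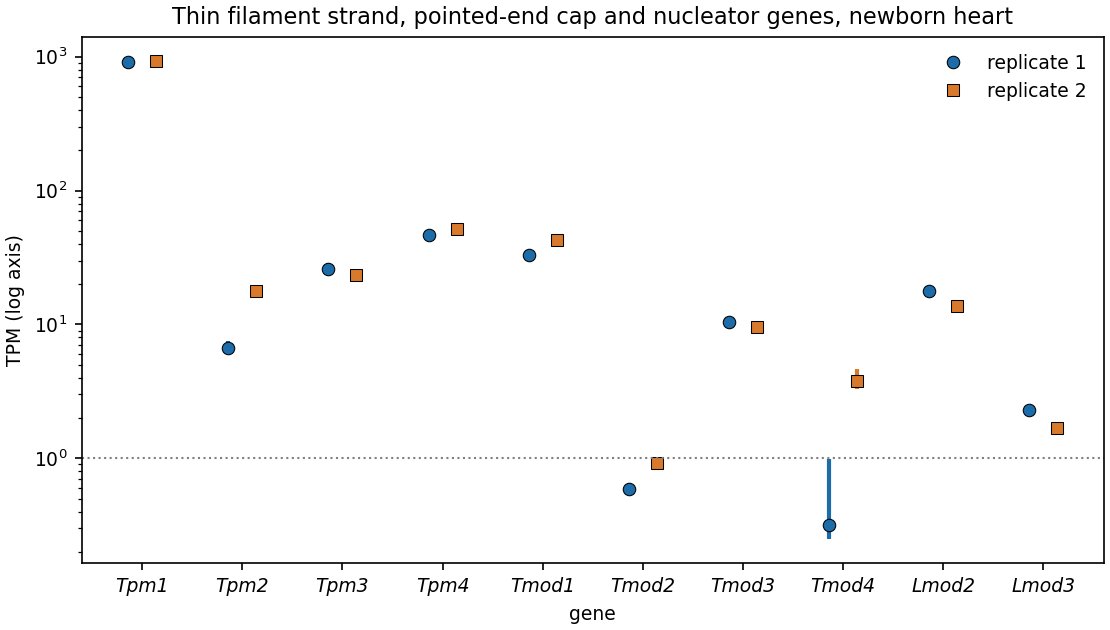
TPM of the 10 members on a log axis, with circles for replicate 1, squares for replicate 2, vertical lines for the deposited bounds and a dotted line at 1 TPM. Tpm1 stood at 905 and 934 TPM in replicates 1 and 2, Tmod2 stayed under 1 TPM in both, and Tpm2 and Tmod4 showed the widest gaps between replicates.

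Among the tropomyosins, Tpm1, the main tropomyosin gene of the heart (ENSMUSG00000032366.11, GRCm38 chromosome 9, 67022590 to 67049406, minus strand), had 905 TPM in replicate 1 and 934 TPM in replicate 2. It took rank 52 among all genes by mean TPM, 919 ± 20.1, from 89703 and 98807 expected counts. Tpm4, a gene of nonmuscle tropomyosin in the cytoskeleton (ENSMUSG00000031799.9, chromosome 8, 72134975 to 72153142, plus strand), was at 46.7 and 51.5 TPM. Tpm1 exceeded it by 4.27 and 4.18 on the log2 scale. Tpm3, which makes slow skeletal and cytoskeletal forms (ENSMUSG00000027940.14, chromosome 3, 90072649 to 90100902, plus strand), was at 25.9 and 23.3 TPM. Its gap below Tpm4, 0.85 and 1.14 on the log2 scale, was under the limit, although the replicates of the genes did not overlap. Tpm2, the beta-tropomyosin gene of skeletal and smooth muscle (ENSMUSG00000028464.12, chromosome 4, 43514711 to 43523765, minus strand), had 6.70 TPM in replicate 1 and 17.7 TPM in replicate 2. Tpm3 exceeded Tpm2 by 1.94 in replicate 1 but by 0.39 in replicate 2, under the limit in both. The summed tropomyosin level was 985 and 1026 TPM, of which Tpm1 supplied 91.9% and 91.0%, Tpm4 4.75% and 5.02%, Tpm3 2.63% and 2.27%, and Tpm2 0.680% and 1.73%.

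Tropomodulin mRNA was mostly that of Tmod1, the form found at pointed ends in heart muscle and in the red cell membrane skeleton (ENSMUSG00000028328.9, chromosome 4, 46038935 to 46116032, plus strand). Tmod1 reached 33.2 TPM in replicate 1 and 43.0 TPM in replicate 2, or 74.4% and 75.2% of the summed tropomodulin level. Tmod3, the widely expressed form (ENSMUSG00000058587.7, chromosome 9, 75497707 to 75559657, minus strand), was at 10.5 and 9.49 TPM. The log2 ratio of Tmod1 to Tmod3 was 1.65 and 2.17, past the limit in replicate 2 alone. Tmod2, the form of neurons (ENSMUSG00000032186.10, chromosome 9, 75565621 to 75611325, minus strand), was at 0.59 and 0.92 TPM, from 595 and 986 counts spread over the longest effective length among the members. Tmod4, the form of skeletal muscle (ENSMUSG00000005628.8, chromosome 3, 95124476 to 95129209, plus strand), was at 0.32 and 3.77 TPM from 18 and 159 counts. The log2 ratio of Tmod3 to Tmod4 was 4.66 and 1.31, past the limit in replicate 1 alone. The values of Tmod2 and Tmod4 overlapped, with Tmod4 below Tmod2 in replicate 1 and above it in replicate 2 in TPM, while in counts Tmod4 was the lower in both.

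Leiomodin mRNA was mostly that of Lmod2, which lengthens thin filaments in heart muscle (ENSMUSG00000029683.6, chromosome 6, 24597762 to 24605414, plus strand). Lmod2 reached 17.8 TPM in replicate 1 and 13.8 TPM in replicate 2, from 3158 and 2563 counts. Lmod3, needed in skeletal muscle and also made in heart (ENSMUSG00000044086.7, chromosome 6, 97238534 to 97252759, minus strand), was at 2.29 and 1.67 TPM. Lmod2 exceeded Lmod3 by 2.91 and 2.97 on the log2 scale, past the limit in both replicates, and made up 88.6% and 89.2% of their sum. Lmod1, the leiomodin gene of smooth muscle, is not among the 10 and was named after its values were seen. Lmod1 was at 0.28 and 1.98 TPM, below Lmod3 in replicate 1 and above it in replicate 2.

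Set against their partners on the thin filament, Tpm1 was nearer to the 3 troponin genes compared than to cardiac actin, which it lay below. Actc1, the cardiac actin gene, was at 5636 and 5468 TPM, and the log2 ratio of Tpm1 to Actc1 was -2.64 and -2.55. The ratio of Tpm1 to Tnnt2, the gene of the troponin T that binds tropomyosin, was 0.90 and 0.87, to Tnnc1, troponin C, 0.24 and 0.17, and to Tnni3, cardiac troponin I, -0.45 and -0.61. The 3 troponin ratios lay under the limit of 2.15, and the actin ratio past it. Even so, the replicates of Tpm1 did not overlap with those of any of the 3 troponin genes. Tpm1 also exceeded Tmod1, its pointed-end cap, by 4.76 and 4.44, while Tmod1 exceeded Lmod2 by only 0.89 and 1.63, under the limit. The 20 thin filament partners listed include actins, troponins, nebulin-like proteins, a formin, capping proteins and cofilins. Of these 20, 18 were detected, against 24.2% of all genes and 47.1% of protein-coding genes. Among the 19 at a mean of at least 1 TPM, 2 were 2-fold or more higher in replicate 2, Acta1 and Lmod1, and 0 were lower to that extent. Of all genes at that mean, 10.1% were higher and 8.90% lower by 2-fold or more. Lmod1, at 0.28 and 1.98 TPM, reached that mean only through replicate 2. Neb, at 1.57 and 0.37 TPM and a log2 difference of -1.85, lay just under it and was not counted. The highest by mean TPM after Actc1 were Tnni3, at 1235 and 1426 TPM, and Tnni1, the troponin I gene of slow and fetal muscle, at 1091 and 1214.

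Transcript shares gave the protein forms that these levels stand for. The members had 63 annotated transcripts, and 18 of them took 5% or more of the TPM of their gene in at least 1 replicate. A share is the maximum likelihood estimate of the quantification program for reads that several transcripts may share, so a count of 0 does not show that a transcript was absent. The deposited posterior mean share is therefore given beside such counts of 0.

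Tpm1 was almost entirely its striated muscle form. Tpm1-205, with exons 1a, 2b, 6b and 9a, took 94.05% of the TPM of Tpm1 in replicate 1 and 90.89% in replicate 2, or 851 and 849 TPM. The level of this form was thus nearly equal in the replicates. Together with the other transcripts that end in exon 9a, the striated muscle ending had 95.03% and 91.6% of Tpm1, or 93.3 ± 2.45%. Exon 1a, the start of long forms, was in transcripts with 97.4% and 96.7% of the TPM, and exon 6b in 95.8% and 96.6%.

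Transcripts of Tpm1 with exons 2a and 9d, the smooth muscle combination, were few in both replicates but unequal between them. They held 0.471% of Tpm1 in replicate 1 and 3.40% in replicate 2, from 4.26 and 31.8 TPM and from 661 and 5147 counts. Tpm1-215, with exons 1a, 2a, 6b and 9d, supplied 0.47% and 3.05% of the gene. Tpm1-214, with exons 2a, 6a and 9d, had 0 counts in replicate 1, with a posterior mean share of 0.01%, and 476 in replicate 2. Transcripts with exons 2b and 9d held 1.94% and 1.77% in sum, but differed in opposite directions. Tpm1-213, with exons 2b, 6a and 9d, had 1.82% and 1.03%. Tpm1-216, with exons 2b, 6b and 9d, had 0.13% and 0.72%, or 1.17 and 6.68 TPM. A higher level in replicate 2 was thus not limited to transcripts with exon 2a. Tpm1-202, with both 2a and 2b, counts in both groups. It had 0 counts in replicate 1, with a posterior mean of 0.02 TPM, and 37.1 in replicate 2. The short forms from exon 1b held 0.505% and 1.24%. They included Tpm1-206, with exons 1b, 6b and 9b, at 0.22% and 0.95%, or 2.01 and 8.84 TPM. Tpm1-209, which ends in exon 9c, the ending of brain forms, was at 0.22% and 0.29%.

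**Figure D2:**
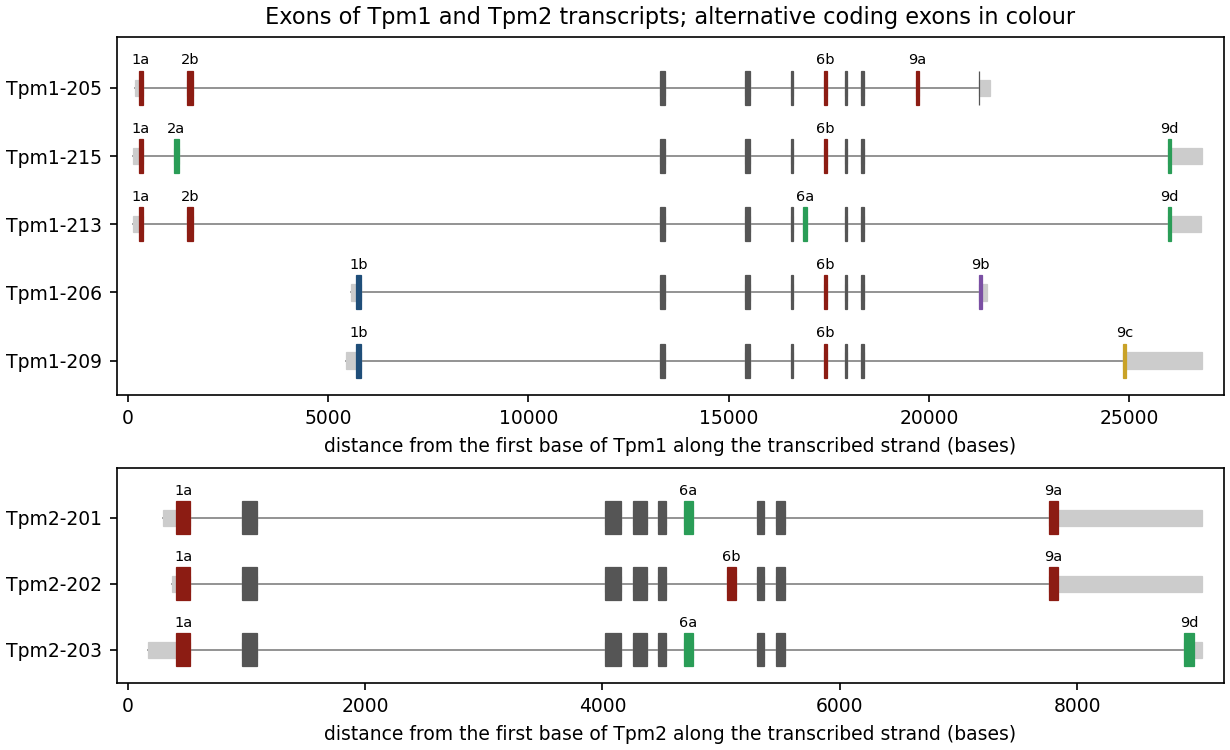
Exons of 5 Tpm1 and 3 Tpm2 transcripts against the distance in bases from the first base of the gene. Coloured boxes are alternative coding exons with their names, dark grey boxes other coding exons and light grey boxes noncoding parts. Tpm1-205 joins exons 1a, 2b, 6b and 9a, Tpm1-215 joins 1a, 2a, 6b and 9d, and the light grey end of Tpm2-201 and Tpm2-202 runs through exon 9d.

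Tpm2 was assigned to its 9a ending, in full in replicate 1 and in part in replicate 2. Tpm2-201, with exons 6a and 9a, took 80.12% and 73.94% of the TPM of Tpm2. Tpm2-202, the skeletal muscle form with exons 6b and 9a, took 19.88% in replicate 1 and had 0 of 3223 counts in replicate 2, with a posterior mean share of 0.14%. Tpm2-203, the smooth muscle and nonmuscle form with exons 6a and 9d, had 0 of 1324 counts in replicate 1, with a posterior mean share of 0.22%, and 21.29% of the TPM in replicate 2, from 366 counts. The exons that set these forms apart are printed with capitals for bases that differ within the pair. Exon 6a of Tpm2 lies at chr4:43519003-43519078 and exon 6b at chr4:43518644-43518719, both on the minus strand, and the last exons lie where given above.
Tpm2 6a: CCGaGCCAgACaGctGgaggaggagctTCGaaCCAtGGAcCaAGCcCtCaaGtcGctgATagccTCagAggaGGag
Tpm2 6b: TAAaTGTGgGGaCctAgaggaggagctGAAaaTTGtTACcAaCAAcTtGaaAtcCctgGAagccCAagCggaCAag
Tpm2 9a: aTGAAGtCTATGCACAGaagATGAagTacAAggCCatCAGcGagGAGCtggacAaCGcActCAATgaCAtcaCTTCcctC
Tpm2 9d: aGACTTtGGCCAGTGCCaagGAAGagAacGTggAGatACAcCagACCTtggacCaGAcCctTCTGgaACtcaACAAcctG
Exons 6a and 6b of Tpm2 differed at 35 of 76 bases and exons 9a and 9d at 47 of 80. The annotated last exon of Tpm2-201 is 1293 bases long and that of Tpm2-202 1292, and each covers all 80 coding bases of exon 9d. A read within exon 9d therefore matches all 3 transcripts, so reads within it cannot split the 9a and 9d endings of Tpm2. In Tpm1 exons 9a and 9d lie apart from each other, but the last exon of Tpm1-209 runs through exon 9d and that of Tpm1-205 covers exon 9b. Exon 6a of Tpm2 was in transcripts with 80.1% and 95.2% of its TPM and exon 6b in 19.9% and 0%. The striated muscle ending averaged 87.0 ± 18.4% of Tpm2, a spread far wider than that of Tpm1.

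Tpm3 and Tpm4 were mostly short, nonmuscle forms. Tpm3-201, with exons 1b, 6a and 9d, took 53.94% of the TPM of Tpm3 in replicate 1 and 59.49% in replicate 2. Tpm3-202, a short form with exons 1b, 6b and 9a, took 28.74% and 26.44%. The slow skeletal muscle form Tpm3-205, with exons 1a, 2b, 6b and 9a, had 0.26% and 0.52%, from 6 and 11.4 counts. The 9a ending was on 29.0% and 26.9% of Tpm3, nearly all of it on the short form and not on the long form of muscle. Tpm3-204, a long form with exon 9d, had 0 counts in replicate 1, with a posterior mean share of 0.23%, and 3.74% of the TPM in replicate 2. Tpm3-207, a transcript that keeps an intron, took 6.75% and 5.10%, and the noncoding Tpm3-210 took 7.80% in replicate 1 and had 0 counts in replicate 2, with a posterior mean share of 0.17%. All counts of Tpm4 were on Tpm4-201, a short form that ends in exon 9d. Genes named as copies of Tpm3 drew few reads: Tpm3-rs7, annotated as protein-coding, had 6.36 and 18.6 counts and Tpm3-rs2, a processed pseudogene, had 0 in both, against 4838 and 4797 for Tpm3.

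Over the family, long transcripts with the striated muscle ending made up 88.1% of tropomyosin TPM in replicate 1 and 84.6% in replicate 2. Short transcripts with another ending made up 6.63% and 7.50%, long ones with another ending 2.22% and 5.13%, and short ones with the 9a ending 0.757% and 0.599%. Incomplete or noncoding transcripts held the other 2.33% and 2.16%.

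**Figure D3:**
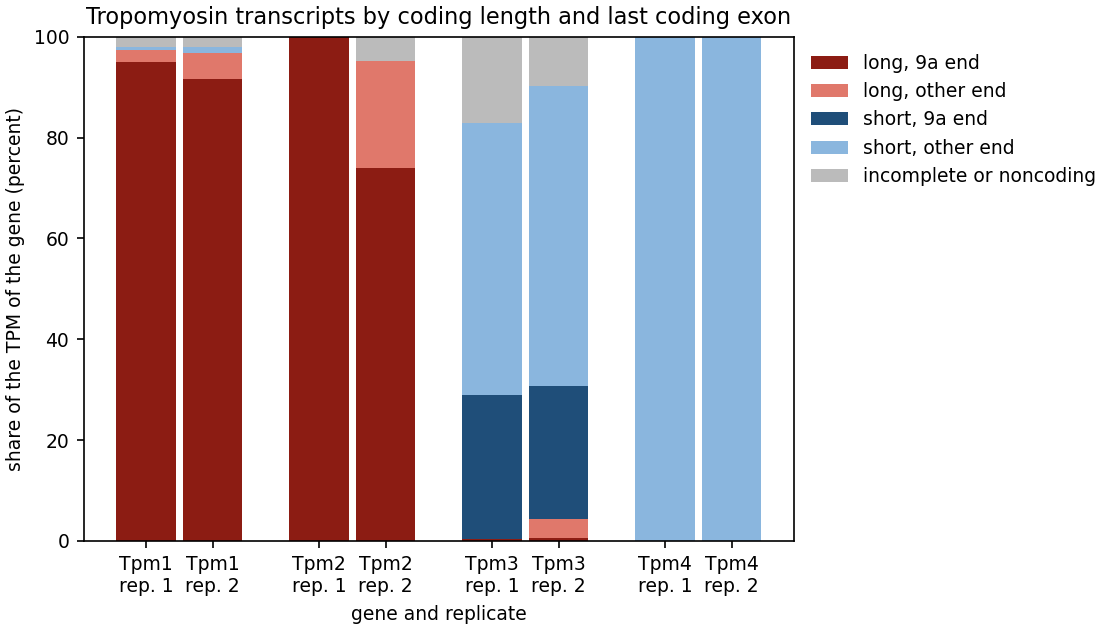
Stacked bars of the share of each tropomyosin gene's TPM, in percent, by transcript class, with the bars of replicate 1 left of those of replicate 2. The 9a ending fills 95.03% and 91.6% of Tpm1, short forms with another ending fill all of Tpm4, and the long form of Tpm2 with another ending has 21.3% in replicate 2 and 0 counts in replicate 1.

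The caps and nucleators had simpler transcript sets, with 2 exceptions at low level. Tmod1-201 took 98.48% and 99.93% of Tmod1, and Tmod3, Lmod2 and Lmod3 each had 1 annotated transcript. The leading transcript differed between replicates in 2 of the 7 members with several transcripts, Tmod2 and Tmod4, and in 34.9% of all genes with several transcripts at a mean of 0.5 TPM or more. All counts of Tmod2 were on Tmod2-201 in replicate 1 and on Tmod2-202 in replicate 2, while the posterior mean gave the other one 11.72% in replicate 1 and 7.25% in replicate 2. Both have the same coding exons, 351 codons, and lengths of 9893 and 9957 bases, so both encode the same protein.

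Tmod4 had few counts on complete coding transcripts. Of its 18 counts in replicate 1, 14.2 were on Tmod4-204, whose coding sequence is annotated as incomplete, and 3.79 on the complete Tmod4-201. All 159 counts in replicate 2 were on Tmod4-206, a transcript of 669 bases that keeps an intron. Both complete coding Tmod4 transcripts had 0 counts in replicate 2, with posterior mean shares of 0.35% and 0.36%. In replicate 1, where counts were few, the posterior mean moved Tmod4-204 to 46.37% of the gene, against 88.25% by maximum likelihood. There it gave 33.25% to the noncoding Tmod4-205, which had 0 counts in both replicates, and 4.38% to Tmod4-206. The effective length of Tmod4 was 532 bases in replicate 1 and 381 in replicate 2, so its difference between the replicates was 3.18 in TPM and 2.66 in counts on the log2 scale. With 1 TPM added in place of 0.1 it was 1.83.

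Most members differed little between the replicates, while Tpm2 and Tmod4 were higher in replicate 2. Differences are log2 ratios of replicate 2 over replicate 1 after adding 0.1 TPM, with the median of all genes whose mean TPM was 1 or above, 0.02, subtracted. Among the 9 members at that level, 2 were higher in replicate 2 by 2-fold or more, against 10.1% of the 11594 genes at that level. They were Tpm2, by 1.37 on the log2 scale, and Tmod4, by 3.18. Tmod4, at 0.32 TPM in replicate 1 and 3.77 in replicate 2, reached that level only through replicate 2, where it was high. None of the 9 was lower by 2-fold or more, against 8.90% of those genes. Tpm1 differed by 0.02, Tpm4 by 0.12, Tpm3 by -0.18 and Tmod3 by -0.17. Tmod1 differed by 0.35, Tmod2, which lay under that level, by 0.54, Lmod2 by -0.39 and Lmod3 by -0.46. The median absolute difference was 0.35 for these 9 members and 0.40 for the 11594 genes. The deposited bounds did not overlap between replicates for any of the 9, and for 73.3% of the 11594 genes. These bounds cover the read assignment of 1 library, at a level not given in the sources used here. They surround the posterior mean, not the TPM, so that Tpm1 at 905 TPM in replicate 1 had bounds of 892 and 904.

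Marker genes of other cell types were read beside these differences. The shares to set beside the counts of each list are 24.2% of all genes and 47.1% of protein-coding genes detected. For 2-fold differences they are 10.1% higher and 8.90% lower among genes at a mean of at least 1 TPM. All 10 cardiomyocyte genes listed were detected, none differed by 2-fold, and their summed level was 14435 and 15302 TPM, led by Actc1 and the ventricular myosin light chain genes Myl2, at 1974 and 2284 TPM, and Myl3, at 1887 and 2314. So the labelled tissue carried its defining markers. Of 8 smooth muscle genes, 7 were detected, all 8 were higher in replicate 2, and 5 passed 2-fold. Their summed level was 583 TPM in replicate 1 and 981 in replicate 2, none was at 0 counts, and the median difference was 2.49 against 0 for all genes after centring. Acta2, smooth muscle actin, was at 280.03 and 395 TPM, and Des, the intermediate filament desmin of all muscle, at 256 and 314. Together they made up most of the summed level, and they differed by only 0.47 and 0.27. Tagln, the smooth muscle calponin-like protein transgelin, was at 16.8 and 160.35 TPM. The other 4 past 2-fold, named after their values were seen, were Myh11, the smooth muscle myosin, at 1.01 and 25.0 TPM, Cnn1 at 8.14 and 49.0, Mylk at 1.29 and 10.5, and Lmod1. Of these, Lmod1 reached a mean of 1 TPM only through replicate 2, where it was high. The 2a and 9d transcripts of Tpm1 were 2.85 higher on the log2 scale in replicate 2, and Tpm2 was 1.37 higher. The striated muscle transcripts of Tpm1 with exons 2b, 6b and 9a differed by -0.03. With 2 replicates, every gene higher in replicate 2 shares its direction with this list, so shared direction shows no link. The part of smooth muscle in these differences was not tested.

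**Figure D4:**
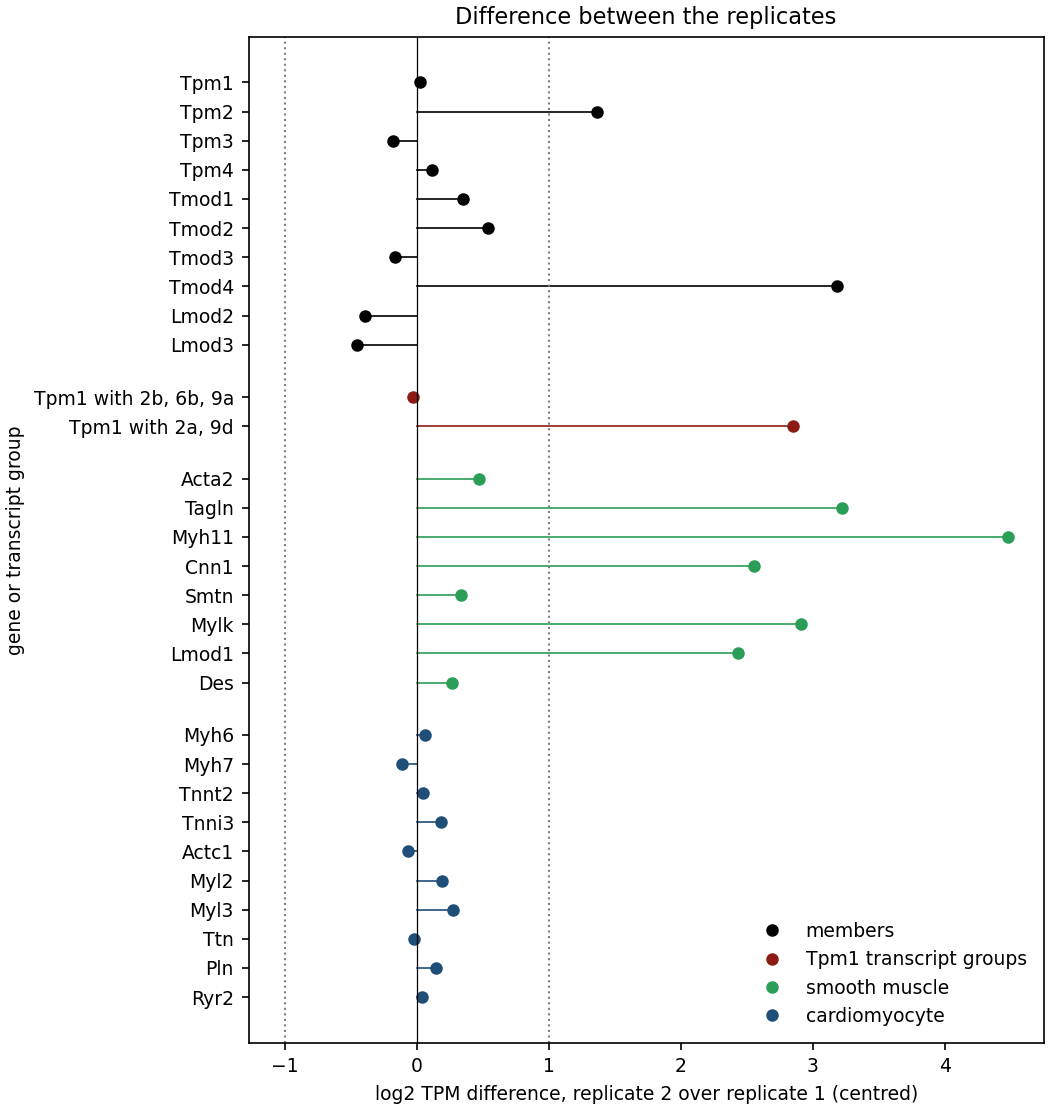
Log2 TPM difference of replicate 2 over replicate 1 for the 10 members, for Tpm1 transcript groups, and for the smooth muscle and cardiomyocyte lists, with dotted lines at 2-fold in each direction. Tpm2, Tmod4, the Tpm1 transcripts with exons 2a and 9d and 5 smooth muscle genes lie right of the upper line, and the cardiomyocyte genes lie near 0.

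Skeletal muscle markers bear on Tpm2-202, Tmod4 and Lmod3, whose products are known from skeletal muscle. Of 13 skeletal muscle genes, 3 were detected, and Myh4, the fast myosin gene, the myogenic regulators Myod1 and Myog, and Pax7 had 0 counts in both replicates, which allows up to 0.0429 and 0.0408 CPM, counts scaled to the library total. Their summed level was 52.1 TPM in replicate 1 and 115.5 in replicate 2, and most of it was Acta1, skeletal actin, which the heart also makes, at 43.8 and 111 TPM. The next were Myh8, the perinatal myosin, at 2.28 and 1.35 TPM, and Tnnt3, fast troponin T, at 2.87 and 0.20. Besides Acta1 the list was thus within a few TPM. Of its 5 genes at a mean of at least 1 TPM, 3 were higher in replicate 2, 1 of them by 2-fold or more, and 1 was lower by 2-fold or more, with a median difference of 0.03. The part of skeletal muscle in Tpm2-202, Tmod4 and Lmod3 was not tested.

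Red cell markers bear on Tmod1, which also caps filaments of the red cell membrane. Of 11 erythroid genes, 5 were detected and their summed level was 3114 and 3727 TPM, nearly all of it globin: Hba-a2 at 1550 and 1688 TPM, Hbb-bs at 976 and 1156, and Hba-a1 at 379 and 486. Klf1, an erythroid regulator, had 0 counts in both. Tmod1 and the summed list were both higher in replicate 2, and the part of red cells in Tmod1 was not tested. Neuronal markers, read beside Tmod2 and the 9c ending, were low: 1 of 8 was detected, with sums of 4.51 and 6.70 TPM. Map2 was at 1.92 and 5.27 TPM, Tubb3 at 1.58 and 0.48 and Stmn2 at 0.33 and 0.27, while Snap25 and Syt1 had 0 counts in both. Fibroblast genes, 7 of 7 detected, summed to 1214 and 1286 TPM and were led by Vim at 720.14 and 667 TPM, Col3a1 at 153 and 211 and Postn at 113 and 115. Of these 7, 5 were higher in replicate 2, 1 of them by 2-fold or more, with a median difference of 0.31. Endothelial genes, 5 of 5 detected, summed to 199.8 and 190.3 TPM and were led by Egfl7 at 104 and 99.2 TPM, Pecam1 at 39.9 and 33.3 and Cdh5 at 32.8 and 32.5. Of these 5, 2 were higher in replicate 2 and 0 passed 2-fold, with a median difference of -0.04.

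Genes that overlap a member on the other strand were Tstd2, opposite Tmod1, with 1311 and 1601 counts, and the antisense entries Gm26586 and Gm16091, opposite Tpm4, with 0 counts in both. On the same strand, GENCODE M21 places Gm48822 over Tmod2 and Gm48789 over Tmod3, and no counts of them were used here. The libraries were stranded, but how strand entered the counting is not given in the sources used here. Expected counts of all genes summed to 69946215 in replicate 1 and 73615802 in replicate 2, of which the 10 members held 122783 and 138503, or 0.176% and 0.188%.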

How the data were processed

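Newborn heart formed 1 group of 2 replicates. The authors' expected counts estimate how many fragments each gene or transcript gave and were not scaled between libraries. Dividing them by effective length and scaling to a fixed total gave the deposited TPM, and the authors also gave FPKM, used as an alternative. Shares of transcripts are the percent of a gene's TPM, per the file headers. The deposited interval bounds, treated as a score, and posterior means were read as given. The deposited notes name mm10 and GENCODE M4. For the aligner, program versions and interval level: not given in the sources used here.

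Names, coordinates, exons and sequences came from GENCODE M21 on GRCm38. Of 63 member transcripts, 62 were found there and 57 had the same length, including all 45 found tropomyosin transcripts. Of 43346 genes, 42462 were named. Tropomyosin transcripts with a complete coding sequence were grouped by first exon, coding length (long over 260 codons) and last coding exon holding at least 10 coding bases.

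Differences used a pseudocount of 0.1 TPM. No test was possible with 1 group, and the replicates were separate isolates. The members and lists were chosen with earlier results of these data known. Named were all members, transcripts at 5% or more, the 3 highest genes of each list, list genes at 0 counts, and overlapping genes or genes named as copies. Tnnt2, Tnnc1 and Neb fell outside that rule and were picked with their values known. So were the transcripts Tpm1-202, Tpm1-206, Tpm1-209, Tpm1-213, Tpm1-214, Tpm1-215, Tpm1-216, Tpm3-204, Tpm3-205 and Tmod4-205. Alternatives covered thresholds, units, estimates, scaling (TMM from edgeR 4.0.16 on rounded expected counts) and single replicates. Expected counts over all entries summed to 71186117 and 75105452. The computation of replicate differences was tested on simulated data. Python 3.11.15, numpy 2.4.6, pandas 2.3.3, matplotlib 3.10.9 and R 4.3.3 were used.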

Additional observations from a re-analysis of the deposited data

How the results depend on the processing

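Detected members numbered 8, and 7 to 9 under the thresholds, units and single replicates tried, and 2 members were past 2-fold between replicates under each of the 6 alternatives run. Of the 7 neighbouring pairs, 2 were called unequal, and 0 were with the 99th percentile as limit (4.85), 4 with the limit of genes at a mean of 10 TPM (1.29), and 4 in counts not divided by length (limit 1.76). With either replicate alone 3 were, since Tmod1 over Tmod3 passed the limit in replicate 2 and Tmod3 over Tmod4 in replicate 1. In such counts the shares of the tropomyosin level were 84.8% for Tpm1, 2.00% for Tpm2, 4.35% for Tpm3 and 8.80% for Tpm4, against 91.5%, 1.20%, 2.45% and 4.88% in TPM. The counts leave in the greater length of the Tpm2, Tpm3 and Tpm4 transcripts. With complete coding sequences alone, the 9a ending held 32.4% of Tpm3, against 28.0% over all its transcripts. An alternative chosen after seeing the data, Tpm2 without transcripts that run through exon 9d, could give no value, since replicate 1 had no other Tpm2 transcript. No paired analysis was possible because there is 1 group. Depth limits Tmod4, with 18 counts in replicate 1, and the long muscle form of Tpm3.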
